A study of Mus musculus with 5 samples.

Results

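The genes described are 9 of the 35976 rows of a count table: the forkhead factors Foxo1, Foxo3 and Foxo4, and Pik3cd, Akt1, Akt2, Tsc1, Tsc2 and Mtor of the phosphoinositide 3-kinase (PI3K) to AKT to mTOR pathway. They were chosen by symbol, and all 9 are rows of the table. The libraries come from haematopoietic stem cells (HSCs) of C57BL/6 mouse bone marrow, sorted as lineage-negative, Sca-1+, c-kit+, CD34- and CD150+ cells, with 30 cells in a library. The labels give 3 Ythdf3-/- and 2 WT libraries; they describe neither the Ythdf3 allele nor the age of the mice. YTHDF3 is a reader protein of the mRNA mark N6-methyladenosine, and the study set HSC messages with and without it side by side.

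Growth factor receptors activate PI3K, whose lipid product brings AKT to the membrane. Active AKT phosphorylates FOXO proteins, which then leave the nucleus bound to 14-3-3 proteins, and it inhibits the TSC1-TSC2 complex, which otherwise holds back the GTPase RHEB and the kinase mTOR. In mouse HSCs the FOXO factors are known for guarding quiescence and limiting oxidative stress, and loss of Tsc1 is known to drive these cells into cycle. Most of this control acts on proteins, so message levels show the amount of template and not the activity of the pathway.

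The genotype labels were checked first on Ythdf3, which had 2, 339 and 366 counts under the Ythdf3-/- label (libraries 1, 2 and 3), against 20 and 29 counts under the WT label (libraries 1 and 2). The counts in the libraries labelled Ythdf3-/- 2 and 3 stood above both labelled WT, which goes against the labels, while that in Ythdf3-/- 1 was the lowest. The series text gives 2 knockout and 3 wild-type samples from different mice. Every direction below therefore refers to the labels alone. Totals were 6357862 to 9076806 counts under the Ythdf3-/- label and 16650134 and 8968162 under the WT label, so 1 count was worth between 0.0601 and 0.157 CPM, the count scaled to the library's total. All 12 HSC markers listed had counts in every library, at a summed 2587 to 3874 CPM under the Ythdf3-/- label and 3188 and 1994 CPM under the WT label. All 12 reached 1 CPM only in the libraries labelled Ythdf3-/- 2 and WT 1. Slamf1 had 1 count in that labelled WT 2, and Fgd5 had 2 and 5 counts in those labelled Ythdf3-/- 1 and 3. Libraries of the same label differed in markers of other cells. The library labelled Ythdf3-/- 1 held 37701 CPM of 12 erythroid genes and 1393 CPM of 9 B lymphoid genes. Elsewhere these lists reached at most 3211 and 559 CPM. Summed megakaryocyte genes stood at 158.3 to 222.0 CPM under the Ythdf3-/- label, against 401.2 and 296.0 CPM under the WT label. T and NK cell genes stood at 14.1 to 93.1 CPM, against 2.22 and 10.4 CPM, with Cd3d, Cd3g and Klrd1 at 0 throughout. Monocyte genes stood at 63.9 to 241.7 CPM, against 26.7 and 47.8 CPM, with Ccr2 and Mpeg1 at 0 throughout. Neutrophil granule genes stood at 988.6 to 1484 CPM, against 1049 and 790.1 CPM. Prtn3 and Lyz2 made up most of each sum, at 469.3 and 1004 CPM in Ythdf3-/- 1 and 362.3 and 416.0 CPM in WT 2. Mpo and Ctsg were at 0 in every library but Ythdf3-/- 3. The part of these cells in the results below was not tested. The library labelled WT 2 held 1403 CPM of 10 proliferation genes, against 254 CPM in the library labelled WT 1 and 188 to 675 CPM under the Ythdf3-/- label. In samples of pooled cells, fewer cells of a type and less RNA per cell cannot be told apart.

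The sequence that FOXO factors are known to bind was looked for in promoters, because 2 FOXO genes and Akt1 stood lower under the Ythdf3-/- label. The windows are from RefSeq (build GRCm38.p6), which lists promoters for 8 of the 9 genes, 14 in all, as the 250 bases before and 50 after each start. The motif TGTTTAC, or GTAAACA on the other strand, was found in 1 of these 14, a promoter of Akt1, where it begins 161 bases before the start. It occurs in 3.65% of 32851 mouse promoters, and in 13.3% of the 30 listed promoters of FOXO target genes, which are 4 promoters of 4 genes. Akt1 is shown with the 2 of those 4 whose window lies wholly before the start and outside exons, the death genes Bcl2l11 and Bbc3, with the motif in capitals. The windows are chr12:112675014-112675070 (minus strand), chr2:128125788-128125842 (plus) and chr7:16310069-16310125 (plus).
Akt1: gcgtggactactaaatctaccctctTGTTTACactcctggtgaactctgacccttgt
Bcl2l11: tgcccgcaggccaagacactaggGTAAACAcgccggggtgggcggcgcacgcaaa
Bbc3: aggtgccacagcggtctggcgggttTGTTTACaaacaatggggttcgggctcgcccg
A match is a description of the letters, and no binding was measured.

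N6-methyladenosine is deposited in mammals mostly at the adenosine of motifs such as GGACT, often near the stop codon, so this motif was read in the messages as well. In the GENCODE transcript with the longest coding sequence, each of the 9 genes had between 4 and 13 copies, with a median of 1.50 per kb, against 1.02 per kb over 21655 genes. Within 100 bases of the stop codon it was present in Foxo4, Mtor and Tsc1, 3 of 9 genes, against 22.0% of all genes. The copy nearest the stop codon in these 3 is shown with the motif in capitals, in the sense of the message and in build GRCm38. Those of Foxo4 (chrX:101259202-101259230) and Tsc1 (chr2:28687128-28687156) lie in the coding sequence, and that of Mtor (chr4:148556911-148556939) in the 3' UTR. In the Foxo4 window another copy, in lower case, lies directly before the marked one.
Foxo4: tggtgagggactGGACTtcaactttgagc
Tsc1: gctccacatcatGGACTacaatgagactc
Mtor: tgtgcttccagtGGACTaaaaccatggac
Methylation was not measured here. Of these 3, Foxo4 and Mtor were lower in every library labelled Ythdf3-/- than in any labelled WT, as were 11.0% of genes tested, and Tsc1 was not. Of the genes without a copy that near the stop codon, Foxo1 and Akt1 were lower in the same way, and Foxo3, Akt2, Pik3cd and Tsc2 were not.

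None of the 9 genes passed the test between the labels, and none of the 11146 genes tested did (0.00%; edgeR's quasi-likelihood test with Benjamini-Hochberg adjustment at 0.05), while 541 genes (4.85%) had an unadjusted p under 0.05. Akt1 was the 1 gene of the 9 among these 541. By direction, 2.75% of genes tested had such a p with a lower level in libraries labelled Ythdf3-/-, as Akt1 did, and 2.11% with a higher one. DESeq2 called 259 of the same 11146 genes and none of the 9. Foxo1, Foxo4, Akt1 and Mtor were lower in every library labelled Ythdf3-/- than in any labelled WT, as were 11.0% of genes tested, and 20.7% had groups without overlap in either direction. These 4 also had fitted log2 fold changes at or under -2, as did 8.51% of genes tested. The groups of the other 5 genes overlapped. Of the 9 genes 8 were fitted lower, against 52.2% of genes tested, and their median log2 fold change was -1.10, against -0.06. Without the library labelled WT 2, 5 were fitted lower and the median was -0.25. Without both WT 2 and Ythdf3-/- 1, 4 were fitted lower and the median was 0.06, while without Ythdf3-/- 3 it was -2.43. Because the 9 genes were picked with earlier results of these data known, these counts are a description.

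**Figure D1:**
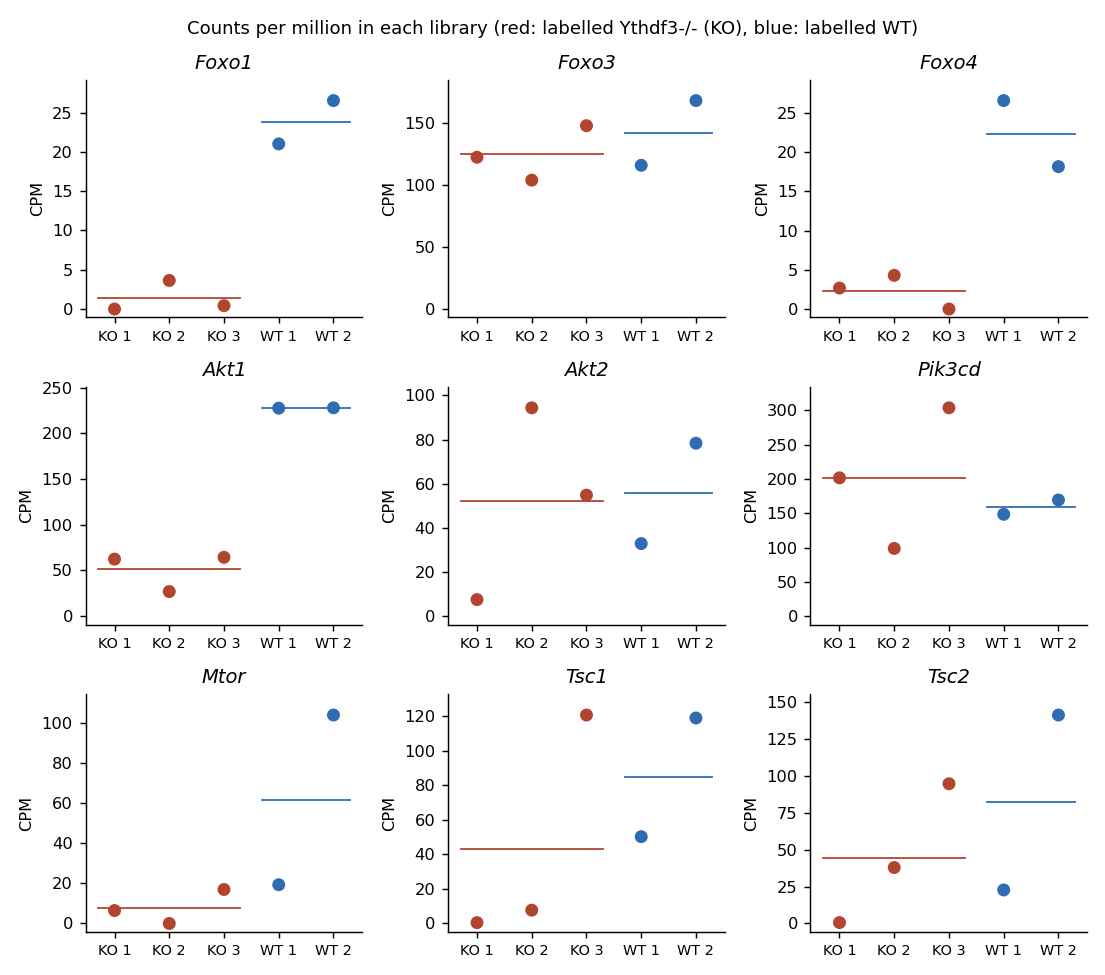
CPM of each of the 9 genes (vertical axis, linear, 1 scale per panel) in the 3 libraries labelled Ythdf3-/- (KO, red) and the 2 labelled WT (blue); lines are the means of each label. Foxo1, Foxo4, Akt1 and Mtor have all red points under all blue points, Foxo3 stays between 103.9 and 168 CPM throughout, and Tsc1 and Tsc2 range from under 1 CPM to over 90 CPM within the Ythdf3-/- label.

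Foxo3 (chromosome 10, 42181845 to 42276695, mm10) encodes the FOXO factor best known for keeping HSCs quiescent, and it was the steadiest of the 9. It had 122.4, 103.9 and 147.8 CPM in the libraries labelled Ythdf3-/- 1, 2 and 3, against 115.9 and 168 CPM in those labelled WT 1 and 2. The groups overlapped, and its highest level was 1.62 times its lowest. The log2 fold change of -0.29 (SE 0.53, edgeR adjusted p = 0.9998) is smaller than its error, and without the library labelled WT 2 it was 0.07.

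Foxo1 (chromosome 3, 52268337 to 52350109), a FOXO factor with known roles in lymphoid cells and in HSC upkeep, was close to the limit of counting under the Ythdf3-/- label. Counts were 0, 33 and 3 in the libraries labelled Ythdf3-/- 1, 2 and 3, against 350 and 238 in those labelled WT 1 and 2. As CPM these are 0, 3.64 and 0.428, against 21.0 and 26.5. The 0 counts allow up to 3 counts, or 0.472 CPM, in that library, for counting error alone. Of the 3 libraries labelled Ythdf3-/-, only number 2 reached the 1.12 CPM that the filter on low counts asks of 2 libraries, so Foxo1 was tested only because it was higher under the WT label. The fitted log2 fold change was -4.19 (SE 2.65, edgeR adjusted p = 0.9998), and -6.81 without the library labelled Ythdf3-/- 2. The library richest in B lymphoid messages, labelled Ythdf3-/- 1, had no Foxo1 counts, and the next richest, labelled WT 1, had 21.0 CPM. Foxo1 was highest, at 26.5 CPM, in the library poorest in these messages, labelled WT 2 (57.4 CPM of B lymphoid genes). Of the exonic bases of Foxo1, 7.78% are shared with Gm20402, a gene of the annotation that is not a row of the table.

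Foxo4 (chromosome X, 101254261 to 101260873), the FOXO factor with the shortest transcript of the 3, had the same shape. It had 17, 39 and 0 counts under the Ythdf3-/- label, against 443 and 163 counts under the WT label. Means were 2.32 ± 2.17 CPM (SD, n = 3) under the Ythdf3-/- label and 22.4 ± 5.96 CPM (SD, n = 2) under the WT label. The groups did not overlap, yet the log2 fold change of -3.33 had an SE of 2.55 (edgeR adjusted p = 0.9998). Foxo6, the fourth family member, had 0 counts in every library.

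Scaled by transcript length, Foxo3 supplied 95.5%, 89.5% and 99.8% of FOXO messages in the libraries labelled Ythdf3-/- 1, 2 and 3, against 60.9% and 73.6% in those labelled WT 1 and 2. Foxo4 supplied at most 8.02% under the Ythdf3-/- label, against 30.3% and 17.2% under the WT label. Foxo1 supplied at most 2.48%, against 8.74% and 9.18%. Summed, the FOXO genes stood at 18.7, 16.9 and 21.6 CPM per kb under the Ythdf3-/- label and at 27.8 and 33.3 CPM per kb under the WT label. The sums did not overlap, and the share of Foxo3 was higher in each library labelled Ythdf3-/-. No test was run on these shares.

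**Figure D2:**
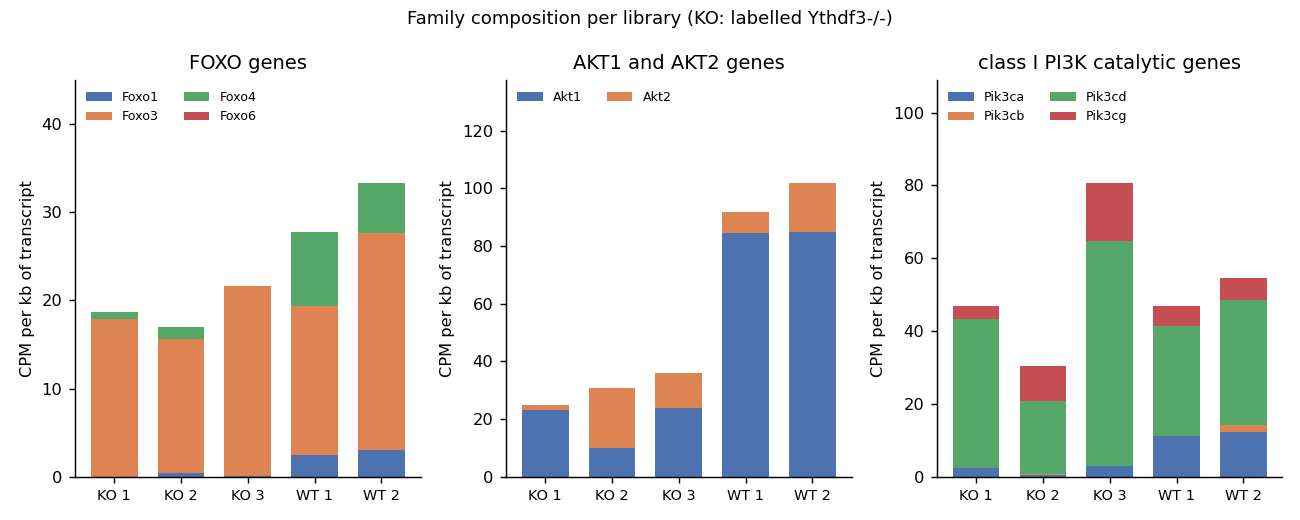
Summed level of the FOXO genes, of Akt1 and Akt2, and of the class I PI3K catalytic genes in CPM per kb of transcript (vertical axis, from 0), stacked by gene, for the 3 libraries labelled Ythdf3-/- (KO) and the 2 labelled WT. Foxo3 fills most of each FOXO bar, the Akt1 and Akt2 bars labelled WT (91.8 and 101.9) are taller through Akt1, and Pik3cd is the largest part of every PI3K bar.

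Akt1 (chromosome 12, 112653821 to 112674884), the most widely expressed AKT kinase, gave the clearest difference among the 9. It had 62.4, 27.0 and 64.4 CPM in the libraries labelled Ythdf3-/- 1, 2 and 3, against 227.4 and 227.8 CPM in those labelled WT 1 and 2. The 2 values under the WT label were nearly equal, and the highest under the Ythdf3-/- label lay far below both. The log2 fold change was -2.25 (SE 0.60, edgeR unadjusted p = 0.00564 and adjusted p = 0.964). DESeq2 gave an adjusted p of 0.0831. Leaving out any 1 library kept the log2 fold change between -2.43 and -1.94.

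Akt2 (chromosome 7, 27591552 to 27640826), the AKT kinase known for insulin signalling, did not follow Akt1. Its levels were 7.55, 94.4 and 54.9 CPM under the Ythdf3-/- label, against 32.9 and 78.4 CPM under the WT label. The lowest and the highest of the 5 values both carry the Ythdf3-/- label. The log2 fold change of -0.19 (SE 1.24, edgeR adjusted p = 0.9998) was 0.35 without the library labelled Ythdf3-/- 1 and 0.64 without that labelled WT 2.

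Per kb of transcript, Akt1 made up 93.3%, 32.6% and 66.5% of the summed Akt1 and Akt2 messages under the Ythdf3-/- label, against 92.1% and 83.1% under the WT label. Akt2 led in the library labelled Ythdf3-/- 2, at 67.4%, and Akt1 in the other 4. The pair stood at 24.9, 30.8 and 36.0 CPM per kb under the Ythdf3-/- label, against 91.8 and 101.9 CPM per kb under the WT label, without overlap.

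Pik3cd (chromosome 4, 149649168 to 149702566) encodes p110-delta, the PI3K catalytic subunit typical of white blood cells. It had 201.5, 98.7 and 303.4 CPM in the libraries labelled Ythdf3-/- 1, 2 and 3, against 148.4 and 169.3 CPM in those labelled WT 1 and 2. The values under the Ythdf3-/- label lay on both sides of those under the WT label. The log2 fold change was 0.24 (SE 0.55, edgeR adjusted p = 0.9998), and -0.16 without the library labelled Ythdf3-/- 3. Per kb of transcript it made up 66.2% to 87.5% of class I catalytic messages under the Ythdf3-/- label and 64.4% and 63.0% under the WT label.

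Among the partners of Pik3cd, 6 of 9 class I PI3K genes were tested and none passed, with 3 fitted lower and 3 higher and a median log2 fold change of -0.24, against -0.06 over all genes tested. The list includes Pik3cd itself. Pik3ca, which encodes the widely expressed p110-alpha, had 137, 36 and 192 counts under the Ythdf3-/- label, against 1678 and 992 counts under the WT label (log2 fold change -2.69, SE 1.13, edgeR unadjusted p = 0.0444 and adjusted p = 0.983). Its share of class I catalytic messages was 1.47% to 5.16% under the Ythdf3-/- label, against 24.1% and 22.7% under the WT label. Pik3r1, the p85-alpha regulatory subunit, averaged 152.2 CPM under the Ythdf3-/- label and 237.2 CPM under the WT label, with overlap.

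Mtor (chromosome 4, 148448582 to 148557685) encodes the kinase of both mTOR complexes. Counts were 41, 0 and 119 in the libraries labelled Ythdf3-/- 1, 2 and 3, against 322 and 933 in those labelled WT 1 and 2. Scaled to depth, the nearest values of the groups were 17.0 CPM under the Ythdf3-/- label and 19.3 CPM under the WT label, so the groups were barely apart. The library labelled WT 2, at 104.0 CPM, stood highest. The log2 fold change of -3.11 (SE 2.19, edgeR adjusted p = 0.9998) was -1.34 without it. Of the 10 proliferation genes 9 were fitted lower, with a median log2 fold change of -2.65, against 52.2% and -0.06 over all genes tested. Without the library labelled WT 2, 5 were, with a median of -0.26, against a median of 0.22 over all genes tested. None of the 10 was at 0 in Ythdf3-/- 3 or under the WT label. Ccnb2 and Cdca8 were at 0 in the library labelled Ythdf3-/- 1, and Ccnb1 in that labelled Ythdf3-/- 2. The part of proliferation in the Mtor values was not tested.

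Tsc1 (chromosome 2, 28640993 to 28691172), which stabilises the TSC complex, had 3, 70 and 846 counts under the Ythdf3-/- label, against 836 and 1066 counts under the WT label. The spread inside the Ythdf3-/- label, from 0.472 to 120.6 CPM, was wider than the gap between the means of 42.9 CPM under the Ythdf3-/- label and 84.5 CPM under the WT label. Its log2 fold change was -1.10 (SE 1.71, edgeR adjusted p = 0.9998), -4.44 without the library labelled Ythdf3-/- 3 and -0.25 without that labelled WT 2.

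Tsc2 (chromosome 17, 24595816 to 24632676), the subunit that acts on RHEB, had 4, 344 and 664 counts under the Ythdf3-/- label, against 378 and 1266 counts under the WT label. It was nearly missing from the same library as Tsc1, labelled Ythdf3-/- 1, which held 0.472 CPM of Tsc1 and 0.629 CPM of Tsc2. Its log2 fold change of -1.01 (SE 1.59, edgeR adjusted p = 0.9998) became 0.95 when the library labelled WT 2 was left out, and -2.18 without Ythdf3-/- 3. Of its exonic bases 10.9% are shared with Pkd1, which had 142, 1248 and 835 counts under the Ythdf3-/- label and 393 and 381 counts under the WT label. Without strand, reads in the shared bases cannot be assigned.

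**Figure D3:**
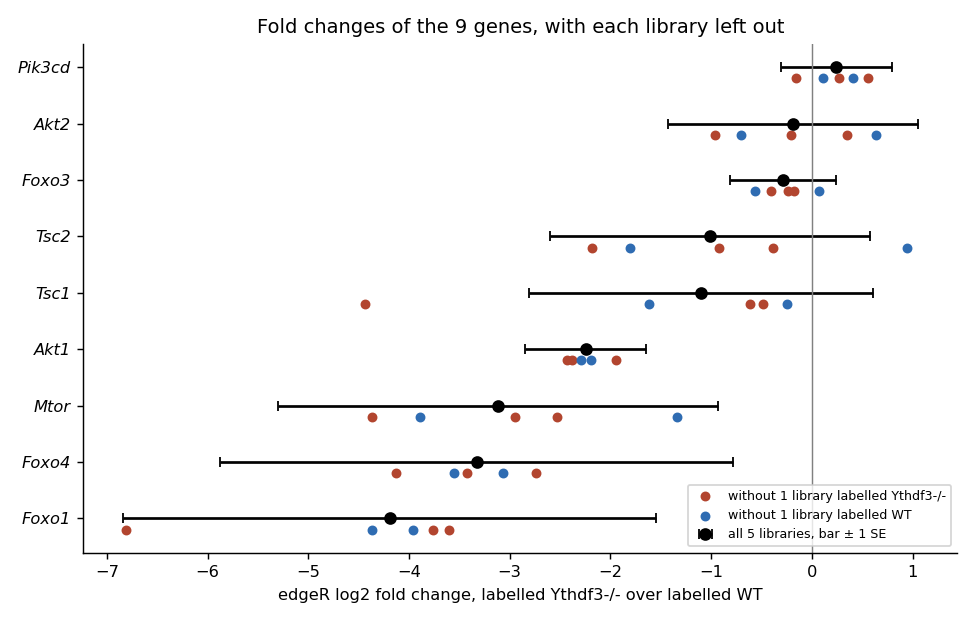
EdgeR log2 fold change of each gene, labelled Ythdf3-/- over labelled WT (horizontal axis), with all 5 libraries (black, bar 1 SE to each side) and with 1 library left out (red: labelled Ythdf3-/-; blue: labelled WT). Akt1 keeps the narrowest spread among the 4 lowest genes, from -2.43 to -1.94, while Tsc2, Akt2, Foxo3 and Pik3cd cross 0.

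Ordered by their median level per kb of transcript over the 5 libraries, the 9 genes ran from Pik3cd (34.4 CPM per kb) through Akt1 (23.9), Foxo3 (17.9), Akt2 (12.1), Tsc2 (6.77), Tsc1 (6.52), Mtor (1.98) and Foxo4 (1.36) to Foxo1 (0.42). No gene was above the next in this order in all 5 libraries. Pik3cd was above Akt1 in 3 libraries and Mtor above Foxo4 in 2. Against all genes tested, mean CPM placed Pik3cd at percentile 90.8 and Foxo1 at percentile 17.2. The highest level lay 3.07 times above the lowest for Pik3cd, 8.44 times for Akt1 and 12.5 times for Akt2. For Tsc2 and Tsc1 it was 224.4 and 255.5 times, where the lowest library held 4 and 3 counts.

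By library, 6, 4 and 2 of the 9 genes were under 10 CPM in those labelled Ythdf3-/- 1, 2 and 3, and none in those labelled WT 1 and 2. Patterns were compared as the root mean square distance between log2 CPM profiles over the 5 libraries, each centred on its mean. Of pairs among the 9, Foxo3 and Pik3cd were closest (0.42), both being rather flat: their own spread on this measure was 0.27 and 0.51. Tsc1 and Tsc2 were each other's nearest (1.13), as were Foxo1 and Foxo4 (1.79). The own spread of Tsc1 and Tsc2 on this measure was 2.87 and 2.64. Among all genes tested the profile nearest to Foxo1 was that of Iqcg (0.42), with 2, 49 and 5 counts under the Ythdf3-/- label and 505 and 236 counts under the WT label. Nearest to the other genes were Anp32b for Foxo3 (0.035), Gca for Foxo4 (0.33), Fam193b for Akt1 (0.23) and Khdrbs1 for Akt2 (0.13). For Pik3cd, Mtor, Tsc1 and Tsc2 they were Psip1 (0.12), Gclc (0.27), Crk (0.25) and Pnrc1 (0.16). These are the closest of 11146 profiles over 5 points, given as a description.

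The rest of the pathway was read from 11 lists by role, 115 genes with the 9 included, of which 96 were tested. None passed edgeR over all genes, 5 had an unadjusted p under 0.05, and 55 of 96 were fitted lower under the Ythdf3-/- label, against 52.2% of all genes tested. In 13 of 96 the groups did not overlap with the Ythdf3-/- label lower, and in 7 with it higher, against 11.0% and 9.74% of all genes. Over the alternatives run, only the medians for the substrates of mTOR complex 1 and for the energy sensing kinases kept their sign, among the 11 lists. The median for the substrates was only -0.01 with no filter on low counts. The median of all genes tested itself ran from -0.17 with limma voom to 0.31 without the library labelled WT 1.

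**Figure D4:**
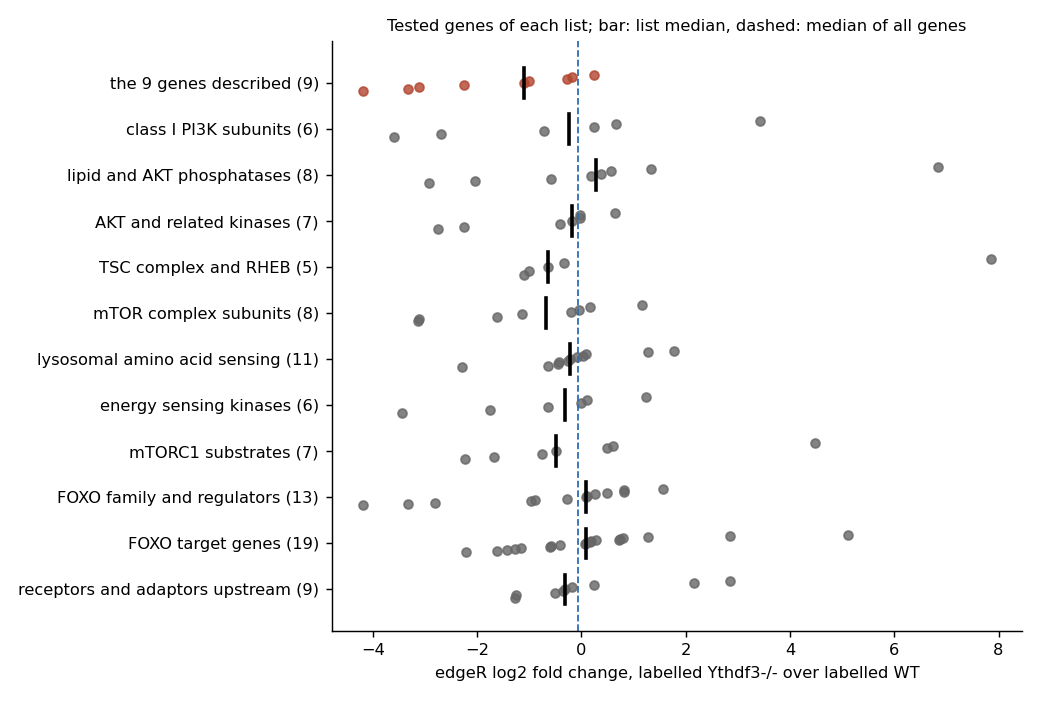
EdgeR log2 fold change, labelled Ythdf3-/- over labelled WT (horizontal axis), of each tested gene of the 9 (red) and of the 11 role lists (grey); the number tested is in brackets, black bars are list medians and the dashed line is the median of all genes tested. List medians lie between -0.67 and 0.28, and that of the 9 genes at -1.10, which was -0.25 without the library labelled WT 2.

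Enzymes that oppose PI3K and AKT did not pass (8 of 9 tested, 3 fitted lower and 5 higher, median 0.28). Inpp5d, which encodes the blood cell phosphatase SHIP1, averaged 165.9 CPM under the Ythdf3-/- label and 136.5 CPM under the WT label. Ppp2cb, a catalytic subunit of the phosphatase PP2A, had 42, 143 and 4 counts under the Ythdf3-/- label, against 526 and 697 counts under the WT label. Phlpp2, an AKT phosphatase, had 86, 91 and 0 counts, against 0 and 1, and passed the filter only through the Ythdf3-/- label.

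Kinases around AKT had a median of -0.19, and none passed. Of 7 tested members 6 were fitted lower, against 52.2% of all genes tested. This count includes Akt1 and Akt2, and it was 2 of 7, with a median of 0.09, when the library labelled Ythdf3-/- 1 was left out. It was 4 of 7 with RLE scaling, library totals or DESeq2. Gsk3a, a kinase that AKT inhibits, had 18, 30 and 74 counts under the Ythdf3-/- label, against 544 and 336 counts under the WT label. Gsk3a shares 19.3% of its exonic bases with 9130221H12Rik. Its paralogue Gsk3b was steady, at 162.6 CPM under the Ythdf3-/- label and 154.2 CPM under the WT label on average. Pdpk1, the kinase that activates AKT, averaged 41.3 and 38.8 CPM with overlap, but ranged from 4.74 to 82.7 CPM within the Ythdf3-/- label.

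Of the TSC and RHEB genes, Tsc1 and Tsc2 included, 4 of 5 were fitted lower, against 52.2% of all genes tested, and none passed. Without the library labelled WT 2, 1 of 5 was, and without both WT 2 and Ythdf3-/- 1, 0 of 5. Rheb, the GTPase switched off by the TSC complex, averaged 47.8 CPM under the Ythdf3-/- label and 56.5 CPM under the WT label. Its relative Rhebl1 had 403, 279 and 2 counts under the Ythdf3-/- label, against 2 and 1 counts under the WT label. It was the 1 gene of the 96 tested in these 11 lists that DESeq2 called (adjusted p = 0.0118), against 259 of all 11146 tested. In edgeR its adjusted p was 0.983. It passed the filter on low counts only through the libraries labelled Ythdf3-/- 1 and 2, so that call depends on the label in which it was high. The library labelled Ythdf3-/- 3 held 2 counts of Rhebl1, as did the deeper library labelled WT 1.

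Subunits of the mTOR complexes had 6 of 8 tested members fitted lower, against 52.2% of all genes tested. Their median of -0.67 became 1.50 without the library labelled WT 2. Rptor, which defines complex 1, had 665, 3 and 0 counts under the Ythdf3-/- label, against 43 and 236 counts under the WT label. Rictor, which defines complex 2 and is also a FOXO target, had 150, 76 and 109 counts, against 37 and 784. Mapkap1, another part of complex 2, had 19, 5 and 17 counts, against 561 and 1. In these 3 genes the libraries of the same label differed more than the labels. Deptor, an inhibitor of mTOR, averaged 71.4 CPM under the Ythdf3-/- label, where it ranged from 9.70 to 123.2 CPM, and 59.7 CPM under the WT label.

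Substrates of complex 1 had 4 of 7 tested members fitted lower, with a median of -0.48, and none passed. Eif4ebp2, a repressor of cap-dependent translation, had 146, 325 and 157 counts under the Ythdf3-/- label, against 3087 and 519 counts under the WT label (log2 fold change -2.24, SE 0.90, edgeR unadjusted p = 0.0382 and adjusted p = 0.964). Its more abundant relative Eif4ebp1 averaged 235.2 and 306.6 CPM, with overlap. Rps6kb2, an S6 kinase, had 1201, 421 and 6 counts, against 28 and 44. It shares 21.2% of its exonic bases with Coro1b and Ptprcap.

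Of the FOXO family and its regulators, the 3 factors included, 13 of 14 were tested, 6 were fitted lower and 7 higher, and none passed (median 0.08). Of the 14-3-3 genes, Ywhaz and Ywhah were higher in every library labelled Ythdf3-/- than in any labelled WT, as were 9.74% of genes tested. Ywhaz averaged 784.1 CPM under the Ythdf3-/- label and 524.3 CPM under the WT label, and Ywhah 449.4 and 243.3 CPM. Neither passed edgeR (adjusted p = 0.9998 for each). Ywhag was fitted lower (log2 fold change -0.96), at 50.6, 50.7 and 27.9 CPM under the Ythdf3-/- label, against 42.4 and 114.3 CPM under the WT label. Sirt1, a deacetylase of FOXO proteins, had 1, 0 and 56 counts under the Ythdf3-/- label, against 117 and 249 counts under the WT label.

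Known FOXO target genes were split between directions. Of 27 listed, 19 were tested, 8 were fitted lower and 11 higher, and none passed, with a median log2 fold change of 0.09. Targets of antioxidant defence and autophagy differed in coverage. Sesn2 had 7, 0 and 0 counts under the Ythdf3-/- label, against 1 and 200 under the WT label, and Sesn3 had 20, 0 and 0, against 0 and 0, so neither was tested. Pink1, a mitochondrial kinase gene, had 3.93, 116.2 and 216.9 CPM, against 91.5 and 34.9 CPM. Sod2, the mitochondrial superoxide dismutase, averaged 215.0 CPM under the Ythdf3-/- label and 179.3 CPM under the WT label (edgeR adjusted p = 0.9998). Each library labelled Ythdf3-/- lay above both labelled WT, as in 9.74% of genes tested. Cat, which encodes catalase, averaged 126.3 and 161.5 CPM, Sesn1 163.3 and 147.3 CPM, Txnip 612.2 and 511.9 CPM, and Map1lc3b 765.4 and 680.8 CPM.

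Cell cycle and death targets were sparse. Cdkn1a, the p21 gene, had 226, 0 and 0 counts under the Ythdf3-/- label, against 1013 and 4 counts under the WT label. Cdkn1b, the p27 gene, averaged 14.9 CPM under the Ythdf3-/- label and 21.2 CPM under the WT label. Of the promoters printed above, Bcl2l11 had 1, 3 and 494 counts, against 8 and 153, and Bbc3 had 0, 25 and 1 counts, against 1 and 1. Klf2 and Pdk4 had 0 counts in every library.

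Fbxo32, a ubiquitin ligase gene known as a FOXO target in muscle, stood apart among the targets, and it too passed the filter only through the Ythdf3-/- label. Counts were 309, 399 and 296 under the Ythdf3-/- label (libraries 1, 2 and 3), against 41 and 0 under the WT label (libraries 1 and 2). It was higher in all 3 libraries labelled Ythdf3-/- (log2 fold change 5.10, SE 2.50, edgeR adjusted p = 0.983), and the fitted value was 11.43 without the library labelled WT 1, where the remaining 1 had 0 counts. Cited2, a transcriptional co-regulator, averaged 143.2 CPM under the Ythdf3-/- label and 77.9 CPM under the WT label. Its groups did not overlap either, as in 9.74% of genes tested with the Ythdf3-/- label higher.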

How the data were processed

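Libraries of 30 sorted cells were made by Smart-seq2, which keeps neither strand nor molecule identifiers, and read as paired 150-base reads, per the labels' protocols. The authors deposited raw counts per gene symbol; HISAT2 2.2.1, HTSeq 0.12.4 and mm10 are named in the submitters' processing notes. No source used here names the annotation, the strand setting or the rule for multi-mapped reads.

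Groups follow the sample titles. In R 4.3.3, edgeR 4.0.16 tested the counts of all genes that passed its default filter, with TMM factors, a robust quasi-likelihood fit and no covariate, and adjusted p-values over all 11146 genes at 0.05. The SE is the log2 fold change divided by the root of F. CPM are counts over the library total, without TMM factors. Levels per kb use the GENCODE M21 (GRCm38) transcript with the longest coding sequence. Positions of genes are RefSeq spans (GRCm38.p6, which is mm10), 1-based. Profile distances use log2 CPM with a prior count of 2. The fit was tested on simulated data.

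The 9 genes, the lists and the alternatives were chosen with earlier results of these data known. Named beside the 9 are Ythdf3, the 2 tested non-members of each list with the smallest p (1 of these is not reported here), and the nearest profile to each gene; other genes are named for their role after their values were seen. Replicates are mice, per the series text. Intervals and floors cover counting error only. Alternatives were 3 other scalings, 2 other filters, DESeq2 1.42.0, limma 3.58.1 voom, a replicate block, and fits without each library or without the 2 that stand apart.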

Additional observations from a re-analysis of the deposited data

How the results depend on the processing

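The number of genes of the table called between the labels was 0 in the fit described and 21 with no filter on low counts, 259 with DESeq2 and between 0 and 1 when 1 library was left out. Genes called among the 115 of all lists went to 1 with DESeq2. The number of the 9 genes fitted lower, 8, was 4 without the libraries labelled WT 2 and Ythdf3-/- 1, and between 5 and 9 with 1 library left out, the lowest without that labelled WT 2. The cause was not tested.

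Of 428 alternative values for 31 named genes, 408 kept their direction and their side of the threshold, and 19, of 10 genes, changed sign. Foxo1, Foxo4, Akt1 and Mtor kept theirs in all 14 alternatives, at -6.81 to -3.42, -4.72 to -2.74, -2.55 to -1.94 and -6.03 to -1.25. The groups of these genes did not overlap, so their kept sign follows largely from that and is no further support. Without the libraries labelled WT 2 and Ythdf3-/- 1 the log2 fold change was 0.06 for Foxo3, 1.12 for Akt2, 0.30 for Tsc1, 1.49 for Tsc2, 0.53 for Rheb and 2.36 for Rictor. With limma voom Rheb was at 0.05 and Rictor at 0.83. With 1 library left out, log2 fold changes ran from -0.56 to 0.07 for Foxo3, -0.96 to 0.64 for Akt2, -0.16 to 0.56 for Pik3cd and -2.18 to 0.95 for Tsc2. The same ranges were -1.20 to 0.05 for Pik3r1, -0.84 to 0.45 for Rheb, -4.12 to 3.84 for Mapkap1, -2.60 to 2.79 for Rictor and -0.83 to 3.44 for Irs2.

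The replicate numbers of the titles were tried as a replicate block, although the mice differ: it called 0 genes and put Pik3cd at -0.25. Deviations of same-numbered libraries from their group means correlated at -0.0043 and 0.0094 over 11146 genes. The deviations of the 2 libraries labelled WT mirror each other, so these values are not independent. They show no pairing by number but cannot exclude it. Without the library labelled WT 1 or WT 2 the median of all genes moved to 0.31 or 0.22, from -0.06. The library labelled Ythdf3-/- 1 was the shallowest, and there 3 counts were worth 0.472 CPM.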

Other observations

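Genes that report nutrients and energy to mTOR were read as well, and none passed edgeR. Of the lysosomal amino acid sensing genes 11 of 12 were tested, 7 were fitted lower under the Ythdf3-/- label and 4 higher, with a median log2 fold change of -0.22. The Ragulator subunits Lamtor1, Lamtor2, Lamtor4 and Lamtor5 were present in every library, and Lamtor2 averaged 237.9 CPM under the Ythdf3-/- label and 299.6 CPM under the WT label. Lamtor3 was higher in every library labelled Ythdf3-/-, at 117.2, 94.5 and 80.7 CPM, against 47.6 and 6.91 CPM under the WT label. Groups without overlap in this direction were found in 9.74% of genes tested.

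Of the AMP-activated kinase genes and its activator Stk11, 6 of 7 were tested, 4 fitted lower and 2 higher, with a median of -0.32. Prkag1, the gamma-1 subunit, had 233, 799 and 260 counts under the Ythdf3-/- label, against 2844 and 1532 counts under the WT label (log2 fold change -1.75, SE 0.68, edgeR unadjusted p = 0.0335 and adjusted p = 0.964). Of the exonic bases of Prkag1, 44.2% are shared with B130046B21Rik, and without strand reads there cannot be assigned. Prkab2, a beta subunit, had 1, 78 and 1 counts, against 688 and 188. Upstream receptors and adaptors (9 of 10 tested, median -0.32) held Kit at 379.6 CPM under the Ythdf3-/- label and 408.2 CPM under the WT label. The adaptor Gab1 had 0, 711 and 513 counts, against 356 and 2, and Irs2 had 0, 233 and 10 counts, against 25 and 8. Gab1 and Irs2 passed the filter on low counts only with the libraries labelled Ythdf3-/-, and Prkab2 only with those labelled WT.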
